A study of Mus musculus with 8 samples.

Results

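The genes described here are 9 enzymes of the mitochondrial tricarboxylic acid (TCA) cycle, chosen by name as members of the pathway, with earlier results of these data known. They are Cs, Idh2, Idh3a, Ogdh, Suclg1, Sucla2, Suclg2, Fh1 and Mdh2. All 9 were found by symbol among the 47643 Ensembl genes of the deposited count files, and all 9 passed the filter on low counts that left 13829 genes. The files come from kidneys of 4 wild-type libraries (WT) and 4 conditional knockout libraries (cKO) of genotype Six2-Cre;Cox10-fl/fl. Age is given as 3 months for replicates 1, 3 and 4 and as 2.5 months for replicate 2 of both groups. Cox10 encodes an enzyme that makes heme A for cytochrome c oxidase, the last complex of the respiratory chain. Six2-Cre acts in nephron progenitors, so the tubule and podocytes derived from them carry the deletion, while collecting duct, vessels, stroma and blood do not. The wild-type genotype is given with no Cre or floxed allele, and the labels do not say whether each library is a separate animal, so p-values measure the spread between these libraries.

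The TCA cycle oxidises the acetyl group of acetyl-CoA in the mitochondrial matrix and hands the electrons to the respiratory chain as NADH and as reduced flavin in succinate dehydrogenase. Its intermediates also leave the cycle for glucose, amino acid and heme synthesis. In the kidney the enzymes are abundant in the proximal tubule and the thick ascending limb, which run on oxidative metabolism.

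Library totals ranged from 9454830 to 15838026 counts, and each member held 1059 to 8981 counts in a library. Kidney identity was clear from the nephron markers, with summed proximal tubule markers between 3560 and 22356 CPM (counts scaled to a common library size after edgeR's TMM correction). The targeted gene, Cox10, had 20.96 ± 2.47 CPM in WT and 18.4 ± 5.12 in cKO (SD, n = 4 each; exact two-sided permutation p = 0.514). The labels do not say which part is floxed, so a whole-gene total is no check of them. The labels give no sex. Y-linked genes had 0 counts in all cKO libraries but cKO 3 and in WT 1, and 829 to 1707 counts elsewhere, so genotype and sex overlap in part. WT 4 and cKO 4 carry later numbers in the file headers than the other 6 libraries.

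RefSeq promoter windows (GRCm38.p6, 250 bases before to 50 after the transcript start) were found for 8 of the 9 members, the exception being Idh3a. Short stretches are shown for Idh2 and Sucla2, which were lower in cKO by the test below, and for Suclg2, the partner of Sucla2, which did not pass it. Each is the stretch free of annotated exons nearest to the start, on the transcript strand, in lower case because it holds no complete match to the motifs searched.
Idh2 (chr7:80115393-80115542, minus strand): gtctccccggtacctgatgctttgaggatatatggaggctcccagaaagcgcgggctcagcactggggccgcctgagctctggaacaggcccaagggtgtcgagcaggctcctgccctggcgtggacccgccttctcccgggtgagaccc
Sucla2 (chr14:73552536-73552631, plus strand): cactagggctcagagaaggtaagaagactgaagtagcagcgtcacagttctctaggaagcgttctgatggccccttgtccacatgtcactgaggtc
Suclg2 (chr6:95718847-95718996, minus strand): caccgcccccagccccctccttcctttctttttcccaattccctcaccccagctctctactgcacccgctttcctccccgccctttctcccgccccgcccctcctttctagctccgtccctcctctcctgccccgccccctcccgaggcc

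The windows were searched on both strands for 4 motifs chosen with the sequences in view. The NRF1 motif, bound by a regulator of mitochondrial genes, was found in 1 of 8 members (Sucla2), against 4.6% of all 32851 windows. The cAMP response element TGACGTCA was found in 2 of 8 (Ogdh and Mdh2), against 1.79%. The nuclear receptor half-site AGGTCA was found in 3 of 8 (Ogdh, Sucla2 and Fh1), against 16.3%, and the ETS motif CCGGAAG in 0 of 8, against 8.86%. Some genes have several windows in that table, 6 of them for Ogdh. The matches below are shown with 30 bases around them, the match in capitals. They are descriptions of letters, not evidence of binding.
Sucla2, NRF1 motif on the other strand (chr14:73552759-73552788, plus strand): ctgcgtctctGCGCCTGCGCggtgcccagg
Sucla2, AGGTCA (chr14:73552615-73552644, plus strand): cacatgtcactgAGGTCAaagttctgaagg
Ogdh, TGACGTCA (chr11:6291535-6291564, plus strand): acccaattctgTGACGTCAcgtcacgccca
Mdh2, TGACGTCA (chr5:135778511-135778540, plus strand): ggagagaatcgTGACGTCAggcctcgctcg

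The comparison of cKO with WT asked whether loss of Cox10 in the nephron was accompanied by a change in TCA cycle transcripts. Idh2 and Sucla2 were lower in cKO, to 0.569 and 0.597 of their WT means. The other 7 members did not pass the test (edgeR quasi-likelihood test, two-sided, adjusted over all 13829 genes, threshold 0.05), and 0 members were higher. The 2 of 9 members lower compare with 7.14% of all tested genes called lower, and 9.57% were called higher. All 9 fitted log2 fold changes (cKO over WT) were below 0 (8 of 9, without Mdh2, when scaled by library size alone), where 50.9% of all tested genes were, and their median was -0.35 against -0.01 for all tested genes. At an unadjusted p under 0.05 the counts were 3 lower and 0 higher, and DESeq2 and limma-voom each called 2 lower and 0 higher. The shares of all tested genes under these 3 rules were not measured, here or below. The cKO libraries lay wholly below the WT libraries in TMM-scaled CPM for 3 of 9 members (Idh2, Sucla2 and Ogdh), against 9.56% of all tested genes. For Ogdh this did not hold as a share of library totals. In bulk tissue, fewer cells of a type and less RNA per cell cannot be told apart.

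**Figure D1:**
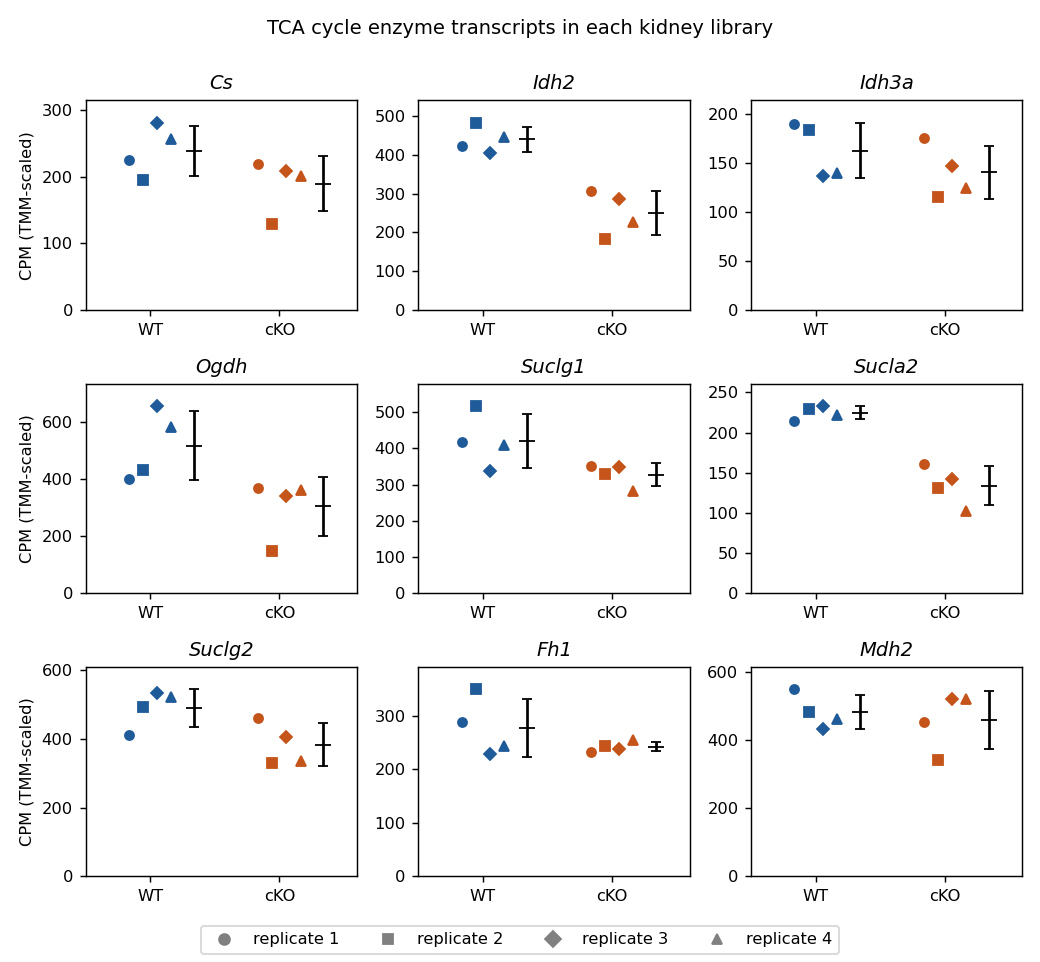
Transcript level of each of the 9 enzymes in CPM (TMM-scaled, vertical axis from 0) in the 4 WT and 4 cKO libraries; each symbol is a library, and the black mark and whiskers are the mean and SD. Groups do not overlap on this scale for Idh2, Ogdh and Sucla2, and cKO 2 is the lowest cKO library for 6 of the 9 genes.

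Cs encodes citrate synthase, which joins acetyl-CoA to oxaloacetate and opens the cycle (ENSMUSG00000005683, GRCm38 chromosome 10, 128337734 to 128362479). It stood at 239 ± 37.5 CPM in WT and 189 ± 41.2 in cKO (SD, n = 4). The WT libraries ranged from 195 to 281 CPM and the cKO libraries from 129 to 219, so the groups overlapped. The log2 fold change was -0.34 (95% interval -0.85 to 0.18, edgeR adjusted p = 0.344), an interval that includes the value of Idh2 given next.

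Isocitrate is oxidised to 2-oxoglutarate by separate mitochondrial enzymes, the NADP-dependent Idh2 and the NAD-dependent complex whose catalytic subunit is Idh3a. Library values are given below in replicate order, from 1 to 4. Idh2 (ENSMUSG00000030541, chromosome 7, 80094846 to 80115392) held 423, 483, 406 and 448 CPM in the WT libraries and 307, 182, 286 and 227 CPM in the cKO libraries. Every cKO library lay below every WT library, and cKO 2 was the lowest. Its means were 440.1 ± 33.4 CPM in WT and 250.6 ± 56.6 in cKO (SD, n = 4). The log2 fold change was -0.81 with an SE of 0.24 and an edgeR adjusted p of 0.038. Idh3a (ENSMUSG00000032279, chromosome 9, 54586334 to 54604661) ranged from 136 to 190.1 CPM in WT and from 115 to 176 in cKO, with overlapping groups. Its log2 fold change was -0.21 (95% interval -0.69 to 0.27, edgeR adjusted p = 0.527).

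Ogdh encodes the first, thiamine-dependent component of the 2-oxoglutarate dehydrogenase complex, which makes succinyl-CoA (ENSMUSG00000020456, chromosome 11, 6291633 to 6356642). It held 399, 432, 655 and 581 CPM in the WT libraries and 367, 148, 340.0 and 360.1 CPM in the cKO libraries. The groups did not overlap with TMM scaling, but WT 1 lay close to the upper cKO libraries and cKO 2 lay far below the rest. As a share of library totals the groups overlapped. WT 1 (4626 of 12922517 counts) then lay below cKO 1 (6010 of 14837448 counts). The means were 517 ± 122 and 304 ± 104 CPM (SD, n = 4), and the log2 fold change of -0.77 lay between those of Idh2 and Sucla2 and had a wider error (SE 0.32, edgeR adjusted p = 0.12). It passed the threshold with a term for age, at -0.84 (edgeR adjusted p = 0.0415).

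Succinyl-CoA ligase releases the energy of succinyl-CoA as a nucleotide triphosphate. Suclg1 encodes the alpha subunit common to both forms of the enzyme, Sucla2 the beta subunit of the ATP-forming enzyme and Suclg2 that of the GTP-forming enzyme. Sucla2 (ENSMUSG00000022110, chromosome 14, 73525319 to 73596142) held 215, 229, 233 and 221 CPM in the WT libraries and 160.3, 131, 142 and 103 CPM in the cKO libraries. The WT libraries lay within a narrow band and every cKO library was below it, cKO 4 lowest. The means were 225 ± 8.15 CPM in WT and 134 ± 24.1 in cKO (SD, n = 4). The log2 fold change was -0.75 with an SE of 0.20 and an edgeR adjusted p of 0.0289.

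Suclg1 (ENSMUSG00000052738, chromosome 6, 73248382 to 73276911) ranged from 338 to 517 CPM in WT and from 282 to 350.2 in cKO. Its log2 fold change was -0.36 (95% interval -0.86 to 0.13, edgeR adjusted p = 0.289). Suclg2 (ENSMUSG00000061838, chromosome 6, 95473009 to 95718800) ranged from 410.3 to 533 CPM in WT and from 328 to 461 in cKO. Its log2 fold change was -0.35 (95% interval -0.86 to 0.15, edgeR adjusted p = 0.307). Groups overlapped for both genes. The expected count of Suclg2 was whole, within 0.001, in only 1 of 8 libraries, which shows that some of its reads were divided with another gene, whereas the other 8 members were whole in all 8.

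Fh1 encodes fumarase, which turns fumarate into malate (ENSMUSG00000026526, chromosome 1, 175600374 to 175625635). It ranged from 228 to 349 CPM in WT and only from 232 to 254 in cKO, within the WT range (log2 fold change -0.20, 95% interval -0.67 to 0.28, edgeR adjusted p = 0.558). Kmo, on the opposite strand, overlaps Fh1, and how the authors' counting used strand was not stated. Mdh2, the mitochondrial malate dehydrogenase that regenerates oxaloacetate (ENSMUSG00000019179, chromosome 5, 135778480 to 135790398), had the smallest difference of the 9. It stood at 482 ± 49.2 CPM in WT and 458 ± 84.6 in cKO (SD, n = 4; log2 fold change -0.07, 95% interval -0.59 to 0.44, edgeR adjusted p = 0.853). Its sign turned to 0.10 when libraries were scaled by size alone and to 0.05 without cKO 2.

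**Figure D2:**
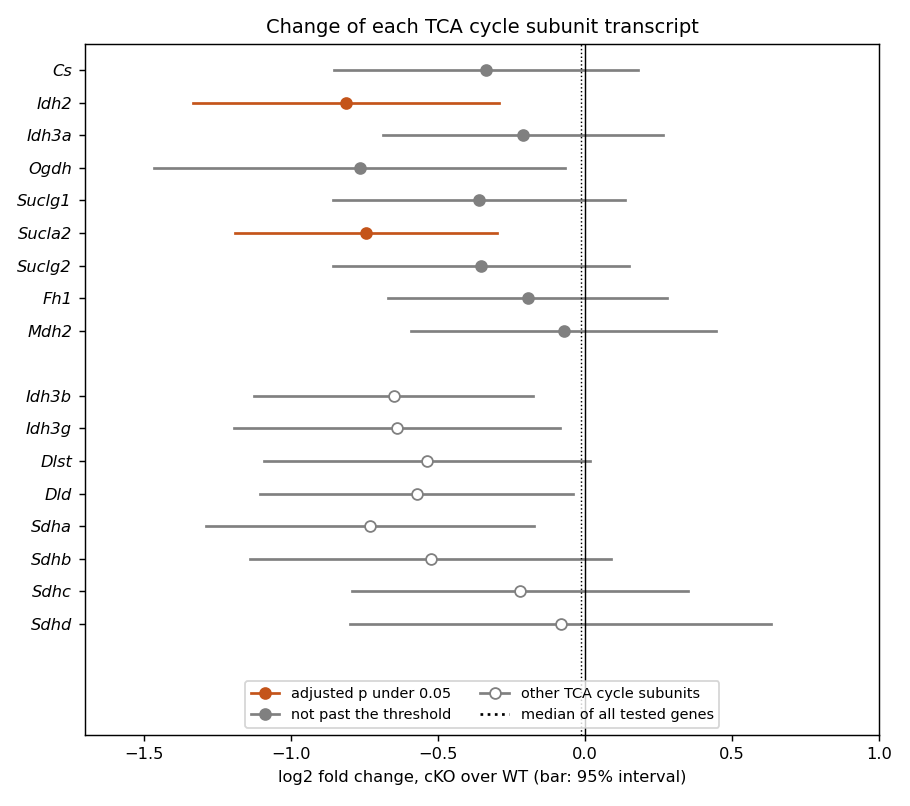
Log2 fold change (cKO over WT) of the 9 enzymes (filled) and of 8 of the other 9 subunits of the cycle (open) with 95% intervals; the dotted line is the median of all tested genes. All estimates shown lie below 0 with TMM scaling (Mdh2 and Sdhd turn above 0 by library size alone), and Idh2 and Sucla2 pass the adjusted threshold.

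The calls of Idh2 and Sucla2 sat close to the threshold. Leaving out WT 2, WT 3, WT 4, cKO 2, cKO 3 or cKO 4 ended both, with edgeR adjusted p from 0.0593 to 0.111 for Idh2 and from 0.050009 to 0.0933 for Sucla2, while the log2 fold changes over all 8 omissions stayed between -0.92 and -0.69 and between -0.84 and -0.64. With a term for sex, taken from Y-linked reads, the values were -0.73 and -0.70 (edgeR adjusted p = 0.155 and 0.131), and 0 of 9 members were called, against 1.63% of all tested genes called lower, 5.17% called higher and 6.8% called either way. At an unadjusted p under 0.05 that fit gave 2 lower and 0 higher. Within the libraries without Y-linked reads Idh2 and Sucla2 were at -0.83 and -0.71, and within those with them at -0.64 and -0.68, each contrast resting on a single library in 1 genotype. The interaction of genotype with Y-linked reads gave 0 members past the threshold (edgeR adjusted p = 1), and it was called for 0.0651% of all tested genes.

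Members in the same step were compared within a library, where the ratio of counts does not depend on how libraries are scaled. The 4 ratios, each chosen by enzyme function, were tested by an exact two-sided permutation test of the mean log2 ratio over 70 splits. For each ratio the groups did not overlap. The exact permutation test gave p = 0.0286 for each, the smallest it allows, also after Benjamini-Hochberg adjustment over the 4. Of single tested genes, 9.56% had all 4 cKO libraries below all 4 WT libraries and 13.1% above. The share among other gene pairs was not measured. Idh2 is part of both isocitrate dehydrogenase ratios, and no sex term was fitted to any ratio. WT 1, the only WT library without Y-linked reads, lay nearest the cKO libraries in every ratio but Sucla2 to Suclg2, where it lay farthest. Leaving out WT 1, WT 2 or WT 3 took all 4 ratios past 0.05, to an adjusted exact permutation p of 0.0571. Without WT 4 this held for Mdh2 to Mdh1, and without any 1 cKO library for Idh3a to Idh2, while the other ratios stayed under 0.05. Leaving out a library cannot make separated groups overlap. These losses come from the coarse steps of the test with fewer libraries and from the adjustment. They do not measure how stable the ratios are.

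Sucla2 counts per Suclg2 count were 0.524, 0.466, 0.438 and 0.425 in the WT libraries and 0.348, 0.398, 0.351 and 0.306 in the cKO libraries. The ATP-forming beta subunit therefore fell relative to the GTP-forming one, to 0.756 of the WT ratio (exact permutation p = 0.0286, n = 4 each). The Suclg2 counts include divided reads.

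Idh3a counts per Idh2 count were 0.449, 0.38, 0.335 and 0.313 in the WT libraries and 0.573, 0.632, 0.512 and 0.545 in the cKO libraries, a 1.54-fold higher ratio in cKO (exact permutation p = 0.0286, n = 4 each). Within every cKO library the NADP-dependent enzyme had a smaller share of the pair than in any WT library.

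The remaining ratios set a mitochondrial enzyme against its cytosolic relative. Idh2 counts per Idh1 count were 0.682, 1.05, 0.909 and 0.972 in the WT libraries and 0.33, 0.181, 0.354 and 0.433 in the cKO libraries, which is 0.346 of the WT ratio (exact permutation p = 0.0286, n = 4 each). Idh1, the cytosolic NADP-dependent isocitrate dehydrogenase, was at 497 ± 82.9 CPM in WT and 818 ± 212 in cKO (SD, n = 4; log2 fold change 0.72, edgeR adjusted p = 0.0924), with overlapping groups.

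Mdh2 counts per Mdh1 count were 0.316, 0.303, 0.304 and 0.304 in the WT libraries and 0.372, 0.576, 0.438 and 0.613 in the cKO libraries, a 1.597-fold higher ratio (exact permutation p = 0.0286, n = 4 each). The WT ratio was almost constant across libraries and the cKO ratio was not. Mdh1, the cytosolic malate dehydrogenase, went from 1570 ± 132 to 960.4 ± 298 CPM (SD, n = 4; log2 fold change -0.71, edgeR adjusted p = 0.113).

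**Figure D3:**
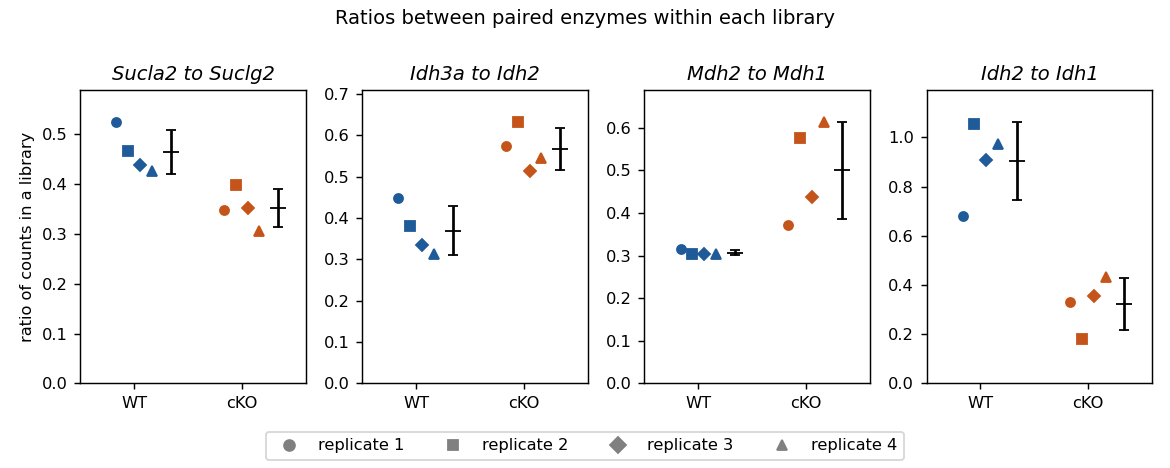
Ratio of counts between paired enzymes in each library (vertical axis from 0; each symbol is a library, black marks are the mean and SD). For all 4 pairs the 4 cKO libraries lie on 1 side of the 4 WT libraries.

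Levels of different enzymes were set side by side per kilobase of annotated exon (CPM per kilobase). In WT, Idh2 was highest at 170.1 ± 12.9 and Mdh2 next at 135 ± 13.8, each ahead of the next by more than the larger SD of the pair (SD, n = 4). Suclg2, Ogdh, Suclg1 and Fh1 followed between 106 and 81.7, with gaps within their SD. Sucla2 at 56.3, Cs at 41.4 and Idh3a at 32.0 closed the order, each below the one before it by more than the larger SD. In cKO, Mdh2 led at 129 ± 23.7 and Idh2 came next at 96.8 ± 21.9. Suclg2, Fh1, Suclg1 and Ogdh then lay between 82.8 and 55.7, and Sucla2 at 33.6 was no longer apart from Cs at 32.8. Idh3a was lowest in both groups. With the longest transcript as length Mdh2 led in WT too. Sucla2 (225 CPM over 2229 bases) was then no longer apart from Fh1 (277 CPM over 2636 bases) in WT. In cKO, Cs (189 CPM over 3003 bases) then lay above Sucla2 (134 CPM over 2229 bases).

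**Figure D4:**
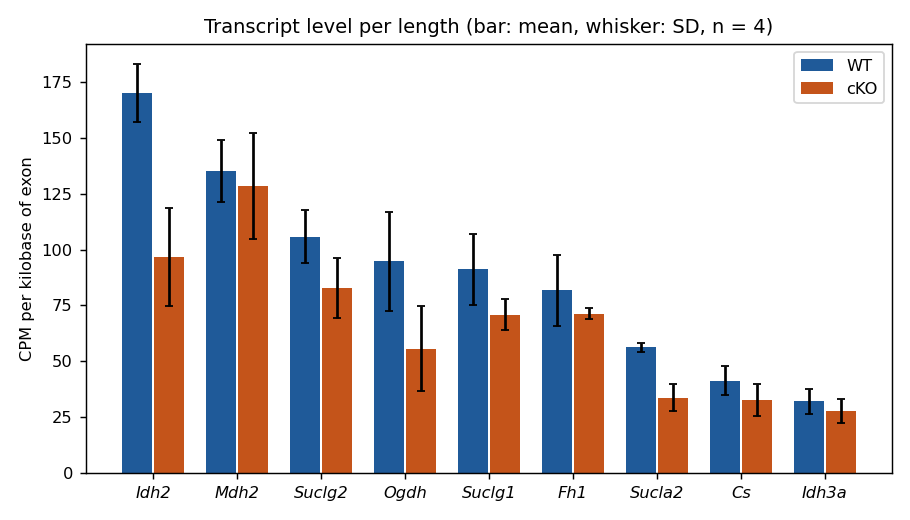
Mean level of each enzyme in CPM per kilobase of exon (vertical axis from 0) in WT and cKO, ordered by the WT level, with SD whiskers (n = 4). Idh2 leads in WT and Mdh2 in cKO, and Idh3a is lowest in both.

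The summed level of the members was 3117 to 3365 CPM in WT and 2724, 1946, 2637 and 2407 CPM in the cKO libraries. That gap depended on TMM scaling. As a share of all counts the members held 0.280, 0.301, 0.330 and 0.321% in the WT libraries. In the cKO libraries the share was 0.301, 0.189, 0.281 and 0.261%, so cKO 1 and cKO 3 lay above WT 1. Proximal tubule markers had the same order over the cKO libraries but not over the WT libraries, summing to 10728, 17849, 22124 and 22356 CPM in the WT libraries and to 9536, 3560, 8883 and 5780 in the cKO libraries, with 6 of 12 called lower and a median log2 fold change of -1.05. WT 1, the only WT library without Y-linked reads, had the lowest WT sum. Its Acsm2 was at 1119 CPM against 5295, 6577 and 6367 in WT 2, WT 3 and WT 4. Its Slc7a13 was at 2.50 CPM against 1022, 1126 and 1043. Genotype and sex thus overlap in part in the proximal tubule sums. Thick limb markers summed to 3165 to 5515 CPM in WT and 1705 to 2790 in cKO. Their median log2 fold change was -0.71, but 0 of 5 were called lower. Cldn16 of that list was called higher (log2 fold change 1.44, edgeR adjusted p = 0.0115). Distal convoluted tubule markers had 3 of 4 called lower (median log2 fold change -1.05), endothelial markers 2 of 6 (-0.61), red blood cell markers 4 of 4 tested (-4.90), intercalated cell markers 1 of 5 (0.17) and podocyte markers 0 of 5 (-0.60). Summed markers of 3 other cell types were higher in cKO, the principal cell list from 350.2 to 623 CPM in WT to 1078 to 2767 in cKO, fibroblast markers from 119 to 204 to 438 to 674, and macrophage markers from 104 to 204 to 401 to 733. Called higher were 4 of 5 tested principal cell markers, 6 of 7 fibroblast markers and 7 of 8 macrophage markers. The fibroblast marker Pdgfra was called lower (log2 fold change -0.91, edgeR adjusted p = 0.0239). The macrophage marker Csf1r was at -0.64 (edgeR adjusted p = 0.156). Injured tubule markers rose in 6 of 6 cases and summed to 459 to 1971 CPM in WT and 10898 to 25123 in cKO. Of these lists no marker was at 0 in every library. Whether these marker differences reflect cell make-up or RNA per cell was not tested. Their part in the lower TCA cycle transcripts was not tested either.

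The other 9 subunits of the cycle all had log2 fold changes below 0 (all but Sdhd by library size alone), from -0.73 to -0.08 with a median of -0.57, and 0 of them passed the edgeR test. At an unadjusted p under 0.05 5 were lower and 0 higher, DESeq2 called 3 lower and limma-voom 1, with no shares of all tested genes to set beside them. Sdhd, a membrane anchor of succinate dehydrogenase, was at 585 ± 228 and 552 ± 145 CPM (log2 fold change -0.08, edgeR adjusted p = 0.879), and its sign turned to 0.09 when scaled by library size alone. Beside the catalytic Idh3a at -0.21, the regulatory subunits of the same complex, Idh3b and Idh3g, were at -0.65 and -0.64 (edgeR adjusted p = 0.0605 and 0.104), and these differences between subunits were not tested. Idh3b and Idh3g were picked after their values were seen.

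Among 13 genes of pyruvate entry, 2 were lower and 1 higher in cKO. Pdk3 and Pdk4 encode kinases that switch off pyruvate dehydrogenase, and they moved in opposite directions. Pdk3 fell from 78.1 ± 14.3 to 33.0 ± 5.22 CPM (log2 fold change -1.24, edgeR adjusted p = 0.0029), whereas Pdk4 rose from 11.7 ± 3.81 to 36.4 ± 26.4 CPM (1.64, edgeR adjusted p = 0.0279; SD, n = 4 throughout). Pdpr, the regulatory subunit of the phosphatase that restores the enzyme, fell from 38.7 ± 11.9 to 10.6 ± 7.72 CPM (edgeR adjusted p = 0.0216). The 4 cKO libraries of Pdk4 held 19.7, 34.9, 16.8 and 74.2 CPM, so its mean rested much on cKO 4.

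Of 17 genes that feed or drain the cycle, 5 fell and 1 rose. Pyruvate carboxylase Pcx, which supplies oxaloacetate, fell from 516 ± 174 to 202 ± 28.6 CPM (log2 fold change -1.35, edgeR adjusted p = 0.0115). Pcca and Mut, which carry propionyl-CoA to succinyl-CoA, fell from 157 ± 21.1 to 75.8 ± 25.7 CPM and from 241 ± 53.8 to 106 ± 38.3 CPM (edgeR adjusted p = 0.0168 for Pcca and 0.0172 for Mut). Pck2, the mitochondrial phosphoenolpyruvate carboxykinase, rose from 14.7 ± 0.711 to 29.6 ± 5.05 CPM (log2 fold change 1.01, edgeR adjusted p = 0.00561; SD, n = 4 throughout).

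Of 5 genes listed as relatives of the 2-oxoglutarate dehydrogenase complex, 3 fell and 1 rose. Dhtkd1, the 2-oxoadipate dehydrogenase of lysine breakdown, fell from 29.9 ± 14.9 to 6.16 ± 4.32 CPM (log2 fold change -2.26, edgeR adjusted p = 0.0127), although WT 1 at 11.1 CPM lay below cKO 1 at 12.2. The branched-chain genes Bckdhb and Dbt fell by 1.20 and 1.29 on the log2 scale (edgeR adjusted p = 0.0198 and 0.0236). The Ogdh paralog Ogdhl rose from 3.44 ± 0.513 to 7.45 ± 2.06 CPM (1.11, edgeR adjusted p = 0.023; SD, n = 4 throughout), a level far under that of Ogdh.

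Of 6 cytosolic counterparts 2 fell, the acetyl-CoA synthetase Acss2 from 284 ± 78.0 to 93.6 ± 49.5 CPM and malic enzyme Me1 from 663 ± 239 to 271 ± 81.0 CPM (edgeR adjusted p = 0.0199 and 0.0262; SD, n = 4). Of 8 carriers of cycle intermediates 1 fell, the oxodicarboxylate carrier Slc25a21, from 17.9 ± 6.25 to 5.36 ± 3.19 CPM (edgeR adjusted p = 0.021; SD, n = 4). Of 12 genes for lipoate attachment, iron-sulfur clusters and succinate dehydrogenase assembly, 0 passed in edgeR, DESeq2 or limma-voom, and 1 was lower at an unadjusted p under 0.05. The most abundant of these, the cluster carrier Isca1 and the glutaredoxin Glrx5, were at -0.46 and 0.29 on the log2 scale (edgeR adjusted p = 0.123 and 0.388).

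Over the 7 lists, 13 of 70 genes were lower and 3 higher, against 7.14% and 9.57% of all tested genes, with a median log2 fold change of -0.43. Of the 14 named genes past the threshold, Pdk3, Pck2 and Pcx stayed past it when any 1 library was left out. The others lost it in 1 to 5 of the 8 omissions: 10 of the 14 without cKO 4, 8 without WT 4, 6 without WT 3, 4 without cKO 2, 2 without cKO 3, 1 without WT 2 or cKO 1 and 0 without WT 1. With a term for sex 12 of the 14 lost their call, the exceptions being Pdk3 and Pck2.

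The 10 other genes whose profile over the 8 libraries lay closest to the mean profile of the 9 enzymes were Dnaja3, Slc37a3, Ndufaf1, Vdac1, Fig4, Tmem167b, Atp6v1b2, Atp5a1, Slc25a12 and Gbe1. Closeness is the mean absolute difference of centred log2 CPM, which was 0.045 for Dnaja3 and 0.066 for Gbe1, against a median of 0.399 over all tested genes. Their log2 fold changes ran from -0.47 to -0.33, with edgeR adjusted p from 0.0989 (Slc37a3) to 0.246 (Gbe1).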

How the data were processed

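RNA sequencing of 8 kidney libraries (4 WT, 4 cKO) was analysed from gene tables of expected counts that the authors deposited. Per the submitters' processing notes, reads were aligned with STAR to mm10 and quantified with RSEM. For tool versions, annotation and strand handling, "not given in the sources used here" applies. Expected counts as deposited were rounded to whole numbers. Identifiers were matched to GENCODE M21 for 47224 of 47643 genes.

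Genes were filtered with edgeR 4.0.16 (filterByExpr), scaled by TMM and fitted with the quasi-likelihood test on genotype, using R 4.3.3. Benjamini-Hochberg adjustment ran over all 13829 genes. CPM use TMM-scaled library sizes. DESeq2 1.42.0 and voom in limma 3.58.1 were alternatives, with other scalings, filters, thresholds and terms, and with each library left out. The fit was tested on simulated data. Ratios were tested as log2 values, with 0.5 added to each count, by exact permutation. Totals of 9454830 to 15838026 counts set the precision, with no library a copy of another.

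The members, gene lists and markers were chosen with earlier results of these data known. Named genes were Cox10, all members, up to 4 called genes with the smallest adjusted p of each other list (or its 2 most abundant where none was called), Mdh1 and Idh1 as ratio partners, and the 10 closest profiles. Some items withheld for evaluation are not reported here.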

Additional observations from a re-analysis of the deposited data

Results flagged for a closer look

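In 68 groups of 4 values checked for a library standing apart (Dixon's ratio of the gap to the whole range, of which chance flags about 1 in 20), 3 did. Ogdh in cKO gave 0.878, with cKO 2 at 148 CPM. Idh1 in WT gave 0.923, with WT 1 at 621 CPM. The Mdh2 to Mdh1 ratio in WT gave 0.889, with WT 1 at 0.316.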

How the results depend on the processing

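The count of members lower in cKO, 2 with TMM scaling, was 1 with upper quartile scaling, no count filter, the replicate block or a term for the later file header numbers (added after seeing the data). It was 0 when scaled by library size alone, at a threshold of 0.01, with the sex term, within libraries without and with Y-linked reads (0 and 0), without the 2.5-month pair and without WT 4 and cKO 4, and 0 to 2 with a library left out. Of the other 70 genes, 13 were lower: 24 by DESeq2, 21 at a threshold of 0.10, 0 and 0 within the libraries without and with Y-linked reads, and 1 at a threshold of 0.01, with the sex term, without the 2.5-month pair and without WT 4 and cKO 4 (2 to 15 with a library left out). The 3 higher became 1 at a threshold of 0.01, with the replicate block, with the sex term, without the 2.5-month pair and without WT 4 and cKO 4, and 0 within both sets (1 to 3 with a library left out). Apart from the sex term, shares of all tested genes under these other settings were not measured. The cause was not tested. Cox10 turned to 0.0724 within libraries with Y-linked reads (edgeR adjusted p = 0.957; -0.29 to -0.01 with a library left out). Mdh2 turned to 0.10 by library size alone, 0.18 within libraries with Y-linked reads and 0.0448 without the 2.5-month pair, with -0.14 to 0.0461 over omissions. Sdhd turned to 0.0885 by library size alone, with -0.27 to 0.0815 over omissions. The median over all tested genes went from -0.01 to 0.15 with library size scaling. The log2 ratios could not pass the threshold with the replicate block (-0.40, 0.62, 0.68 and -1.53, smallest p 0.125, exact permutation) or without the 2.5-month pair (-0.46, 0.59, 0.59 and -1.19, smallest p 0.1, exact permutation), and their ranges over omissions were -0.47 to -0.34, 0.55 to 0.72, 0.57 to 0.81 and -1.69 to -1.27, with the call lost in 3, 7, 4 and 3 of 8 omissions (highest adjusted exact permutation p 0.0571). The groups of each ratio stayed apart in all 8 omissions, so those lost calls came from the coarse steps of the test and its adjustment. The labels do not say whether replicate numbers pair the libraries. Residual correlations of same-numbered libraries were -0.08, 0.28, 0.12 and -0.0022, and without a reference spread they cannot decide it. With the replicate block Idh2 was at -0.84 (edgeR adjusted p = 0.0623) and Sucla2 at -0.76 (0.0456).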
